A study of Mus musculus with 9 samples.

Results

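Gene expression was compared between tracheal epithelial cells of the mouse that carry a keratin 5 reporter and bind a lectin, and cells that bind the same lectin without detectable reporter. The means compared came from 6 of the 9 arrays in the study, chosen by their labels: 3 arrays of the GFP+ lectin+ gate (the GFP+ gate) and 3 of the GFP- lectin+ gate (the lectin-only gate). It covered 18193 genes, each represented by the probe set with the highest mean signal over the 9 arrays. The study sorted dissociated tracheal epithelium by green fluorescent protein (GFP) and by binding of GSI-A3B isolectin, with 3 biological replicates per gate. The remaining gate, GFP- lectin-, is labelled columnar epithelium and its levels served here for orientation. Its arrays were also part of the same statistical fit, so their spread entered the standard errors, p-values and calls.

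All 3 gates came from hemizygous KRT5-GFP transgenic mice, so the reporter transgene was present in both populations compared and only its fluorescence separated them. The labels give both lectin-binding gates as basal cells, and no treatment, time point or further allele distinguished them. The gates are bulk populations, in which fewer cells of a type and less RNA per cell cannot be told apart. Age, number of animals behind each replicate and any pooling were not stated in the labels, so p-values measure the spread between these samples only.

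Basal cells are the progenitor cells of the pseudostratified airway epithelium. They sit on the basement membrane, held there by hemidesmosomes, and express the transcription factor Trp63 and the keratins Krt5 and Krt14. They give rise to club, other secretory and ciliated cells, and Notch signalling between neighbouring cells directs the choice between basal and luminal fates.

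Signals are on the log2 scale, so a difference of 1 is a 2-fold difference, and each difference is the GFP+ mean minus the lectin-only mean ± its limma standard error (SE), with 3 arrays per gate. Array medians lay between 4.97 and 5.16 on 5 of the 6 arrays and at 5.44 on lectin-only replicate 3, on which 73.1% of probe sets exceeded the background level of 3.55, against 65.4% to 66.4% on the other 5. The 3′ minus 5′ signal of Actb, a measure of RNA integrity, was 1.42 to 2.40 in the GFP+ gate and 1.69 to 2.29 in the lectin-only gate, and the gates overlapped. Trp63, whose defining role in basal cells checks the labels, lay between 11.79 and 13.19 on all 6 arrays and between 7.29 and 7.92 on the columnar arrays. Both gates therefore carried the basal label's marker at a level above the columnar gate. Krt5 can check the sort only, since the reporter runs from its promoter, and read 13.44, 13.44 and 13.42 in the GFP+ gate and 12.91, 13.02 and 12.72 in the lectin-only gate. The Krt5 arrays did not overlap, but the difference of 0.55 ± 0.45 was not called (adjusted p = 0.663). That SE holds the columnar spread (standard deviation 1.12, against 0.01 in the GFP+ and 0.15 in the lectin-only gate). In a limma fit of the 6 arrays alone the SE was 0.18, and Krt5 was still not called (adjusted p = 0.197).

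Dlk2, Snai2 and Wnt10a were higher in the GFP+ gate and Mmp12 was lower, in every array of one gate against every array of the other. These 4 genes had been picked as markers of the contrast with earlier results of these data known, so their values are given as a description of it. Dlk2, a membrane protein of the delta-like family, had signals of 10.61, 9.30 and 9.98 on GFP+ replicates 1, 2 and 3 and of 6.47, 6.28 and 6.50 on lectin-only replicates 1, 2 and 3. The lowest GFP+ array was far above the highest lectin-only array, and the difference was 3.55 ± 0.29 (11.7-fold, adjusted p = 3.5e-04). A second probe set of Dlk2 gave 3.05. Snai2, a zinc finger repressor linked to epithelial plasticity, read 11.14, 11.14 and 11.39 in the GFP+ gate against 8.43, 8.64 and 9.12 in the lectin-only gate. Its difference was 2.49 ± 0.30 (5.64-fold, adjusted p = 0.0024), and its other probe set gave 2.53.

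Wnt10a, a secreted Wnt ligand of epithelia, had GFP+ signals of 8.60, 8.37 and 8.50 and lectin-only signals of 5.77, 5.77 and 5.74, with the smallest SE of the 4. It was 6.64-fold higher in the GFP+ gate (2.73 ± 0.20, adjusted p = 2.0e-04) and lay near background on the columnar arrays. Mmp12, the macrophage metalloelastase, read 7.71, 8.0 and 7.11 in the lectin-only gate and 2.47, 2.88 and 2.88 in the GFP+ gate. All GFP+ and all columnar arrays were under the background level, so Mmp12 was at least 16.6-fold lower in the GFP+ gate (fitted difference -4.86 ± 0.30, adjusted p = 1.4e-04), a bound set against that level.

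**Figure D1:**
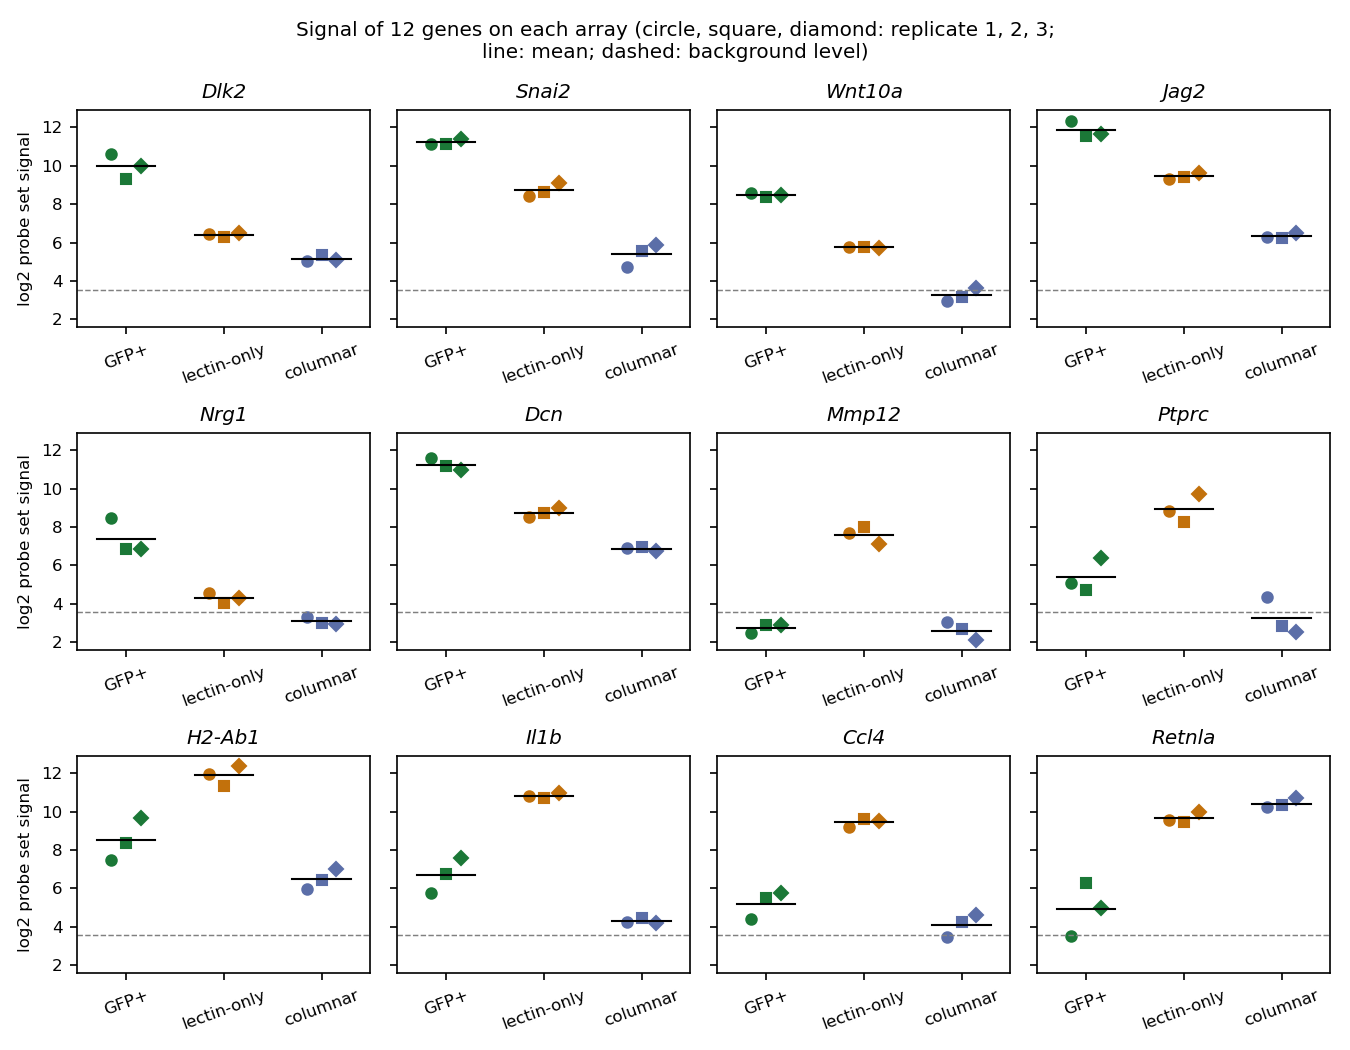
Log2 probe set signal (vertical axis) of 12 genes on each array of the GFP+, lectin-only and columnar gates; symbols are replicates 1 to 3, lines are gate means and the dashed line is the background level of 3.55. Dlk2, Snai2, Wnt10a, Jag2, Nrg1 and Dcn lie highest in the GFP+ gate with the lectin-only gate between the others, while Mmp12, Ptprc, H2-Ab1, Il1b and Ccl4 stand out in the lectin-only gate, and Retnla is low in the GFP+ gate and high in both others.

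Across all genes, 680 of 18193 were called (3.74%), at an adjusted p under 0.05 and an absolute difference of at least 1. Of these, 163 were higher in the GFP+ gate (0.896% of genes) and 517 were lower (2.84%). The lower side also held the larger differences: 82 genes were at least 8-fold lower and 5 at least 8-fold higher. The arrays of the 2 gates did not overlap for any of the 680 called genes, while 18.6% of all genes had arrays that did not overlap (5.24% with the GFP+ arrays above, 13.3% below). The median difference of all genes was -0.10, and the median SE was 0.24 for all genes and 0.30 for called genes.

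The excess of lower genes depended in size on how the arrays were scaled. As deposited, 24.0% of called genes were on the higher side. With arrays centred on their medians 3.92% of genes were called, 256 up and 457 down (35.9% up), after a further quantile normalization 230 and 456 (33.5%), and with arrays centred on ribosomal protein genes 116 and 731 (13.7%). Centring kept all 163 higher genes and 438 of the 517 lower genes. Without lectin-only replicate 3, whose median stood above the others, there were 163 genes on the higher side and 310 on the lower (34.5% on the higher), of which 133 and 292 were calls of all arrays too. That array was the highest of the 3 lectin-only arrays for 353 of the 517 lower genes. Without GFP+ replicate 1 the counts were 85 and 288, and without lectin-only replicate 1 they were 96 and 360.

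The columnar arrays placed the 2 sets of genes differently. Of the 163 genes higher in the GFP+ gate, 162 had their highest mean there, and for 146 the columnar gate had the lowest. Of the 517 lower genes, the highest mean was that of the lectin-only arrays for 368 and that of the columnar arrays for 149. In the GFP+ gate, 81 of the 517 were under the background level on all 3 arrays, and 62 of these were also under it on all columnar arrays.

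**Figure D2:**
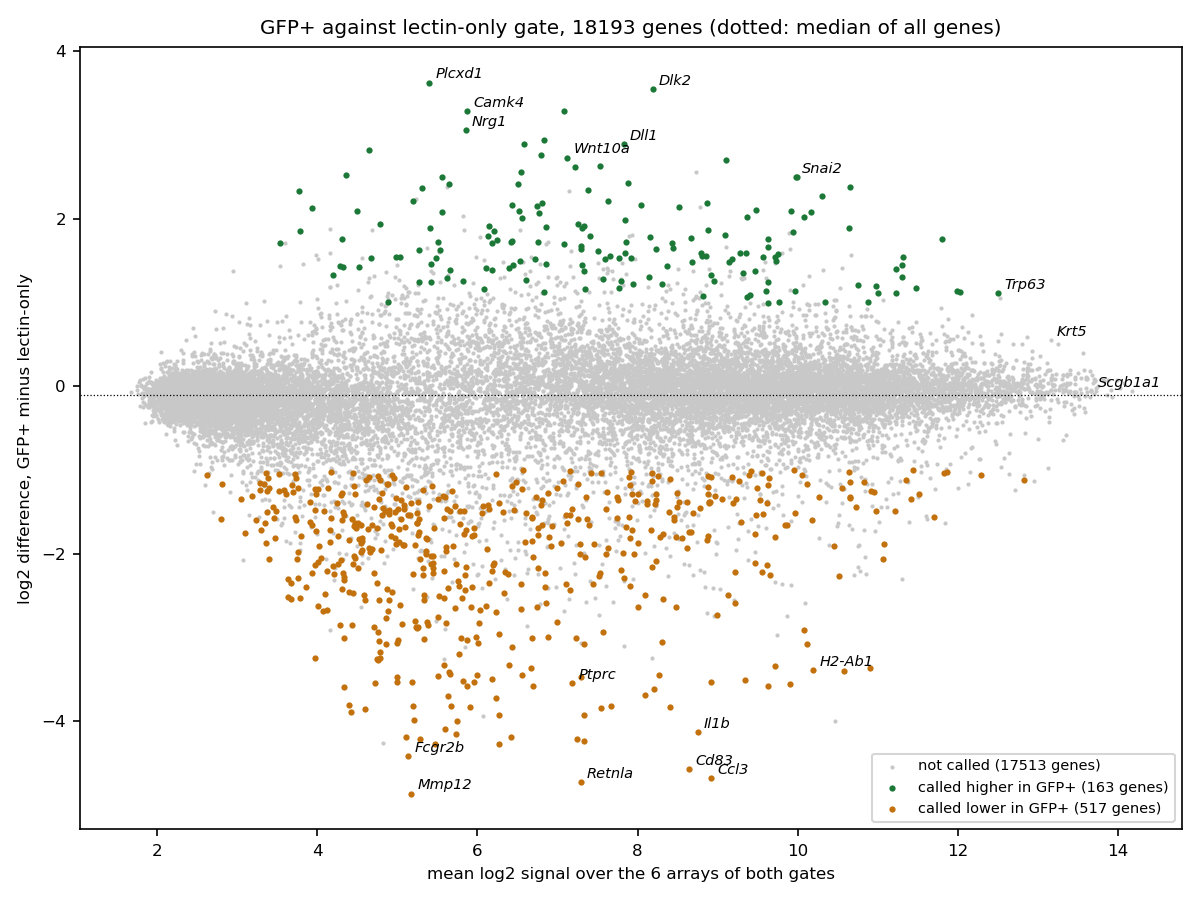
Log2 difference between the gates, GFP+ minus lectin-only (vertical axis), against the mean log2 signal over the 6 arrays (horizontal axis), for 18193 genes, with genes called higher (163) or lower (517) coloured. Called lower genes reach -4.86 (Mmp12) and called higher genes reach 3.63 (Plcxd1); Krt5 and Scgb1a1 lie near the dotted median of all genes.

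Several genes of basal cells were higher in the GFP+ gate and none was called lower. Of the 20 measured genes of this list, 8 were higher (40.0%, against 0.896% of all genes), 0 were lower and 12 did not pass. The median difference was 0.71 against -0.10 over all genes. The 8 include Dlk2 and Snai2, which had been picked as markers of the contrast with earlier results known. The list was chosen with the same knowledge, so its share is a description and no test of enrichment. Beside Dlk2 and Snai2, the higher genes included Sox15, a transcription factor of stratified epithelia, with 8.60, 8.19 and 8.28 in the GFP+ gate against 6.70, 6.70 and 7.11 (1.52 ± 0.19, adjusted p = 0.0028). The zinc finger protein Bnc1 read 9.41, 9.53 and 9.33 against 7.72, 8.19 and 7.91 (1.48 ± 0.24, adjusted p = 0.0092). For both genes the gates were separated by more than their spread, and the columnar arrays were lower still. Trp63, the master regulator of the basal state, was higher by 1.12 ± 0.20 (13.19, 13.05 and 12.93 against 11.98, 12.06 and 11.79, adjusted p = 0.014), a call lost without GFP+ replicate 1 (1.05) and with arrays centred on ribosomal protein genes (0.93). Ngfr, the low-affinity nerve growth factor receptor used to isolate basal cells, was higher by 1.33 ± 0.24, with its call lost without GFP+ replicate 1 (1.23), GFP+ replicate 3 (1.20) or lectin-only replicate 1 (1.32), and with the mean of its probe sets (0.74).

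No keratin of the list was called between the gates. Krt14 read 10.90, 12.13 and 11.32 in the GFP+ gate and 11.68, 11.89 and 10.72 in the lectin-only gate, and the gates overlapped (0.02 ± 0.68). Krt15 and Krt17 differed by -0.02 ± 0.21 and -0.43 ± 0.65 and also overlapped. Pdpn, a surface glycoprotein used as a basal marker, lay at 13.09 to 13.23 against 12.45 to 13.04 (0.42 ± 0.18, adjusted p = 0.31). The mean signal of the 20 genes was 11.57 to 11.73 on the GFP+ arrays, 10.64 to 10.83 on the lectin-only arrays and 7.72 to 8.08 on the columnar arrays. The number of higher genes fell to 4 without GFP+ replicate 1.

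Some components that anchor cells to the basement membrane were higher in the GFP+ gate. Of 22 measured genes, 7 were higher (31.8%, against 0.896% of all genes), 0 were lower and 15 did not pass, with a median difference of 0.69. Lamb3, the beta chain of the laminin that hemidesmosomes bind, read 11.47, 11.24 and 10.91 in the GFP+ gate and 8.72, 9.57 and 9.09 in the lectin-only gate (2.08 ± 0.32, adjusted p = 0.0078). Itgb4, the integrin subunit of hemidesmosomes, read 10.91, 10.47 and 10.07 against 8.80, 9.25 and 8.91 (1.49 ± 0.23, adjusted p = 0.0076). Sparc, a matrix glycoprotein of basement membranes, was higher by 1.54 ± 0.23 (adjusted p = 0.0062). None of these 3 overlapped between the gates, although 1 of the other 2 probe sets of Sparc lay at -0.10. Itga6, the partner of Itgb4, differed by 0.39 ± 0.15 and did not pass (adjusted p = 0.23).

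The anchoring collagens followed the same direction with less stable calls. Col7a1, which forms anchoring fibrils, was higher by 2.35 ± 0.41 (adjusted p = 0.013), a call lost without GFP+ replicate 1 (2.22) or lectin-only replicate 1 (2.09). Col17a1, the transmembrane collagen of hemidesmosomes, read 11.12, 11.53 and 10.22 against 8.28, 9.74 and 8.56 (2.10 ± 0.43, adjusted p = 0.027). Its arrays were separated, but the call was lost in the fit to the 6 arrays alone (2.10) and without GFP+ replicate 1 (2.02), GFP+ replicate 2 (1.81), lectin-only replicate 1 (1.81) or lectin-only replicate 3 (1.95). The count of 7 fell to 4 without GFP+ replicate 1 or lectin-only replicate 1. Of 11 desmosome genes, 1 was higher and 0 were lower (9.09% called, against 3.74% of all genes, median -0.15). The higher gene was the desmosomal cadherin Dsc3, by 1.76 ± 0.34. Its call was lost without any 1 of the 3 GFP+ arrays (1.71, 1.79 and 1.79) and with the 6 arrays alone centred on their medians (1.92).

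In the Notch pathway, 3 membrane ligands or ligand-like proteins were higher in the GFP+ gate, while most receptors and targets did not pass. Of 31 measured genes, 4 were higher and 1 lower (16.1% called, against 3.74% of all genes). The higher genes include the marker Dlk2. The list median was -0.14, close to that of all genes. Dll1, a Notch ligand, read 9.46, 9.63 and 8.72 in the GFP+ gate and 6.19, 6.23 and 6.72 in the lectin-only gate (2.89 ± 0.26, 7.41-fold, adjusted p = 4.8e-04). Jag2, a second ligand, read 12.31, 11.54 and 11.67 against 9.32, 9.40 and 9.64 (2.39 ± 0.22, adjusted p = 6.0e-04), and its other probe set gave 2.01. Both stood clear of the lectin-only arrays, and both were lower again in the columnar gate, with 4.54 to 4.78 for Dll1 and 6.25 to 6.49 for Jag2. Lfng, a glycosyltransferase that modifies Notch receptors, was higher by 1.53 ± 0.24 (adjusted p = 0.0083), but its call was lost with the mean of its probe sets (0.64). Jag1 differed by 0.35 and the target genes Hes1 and Hey1 by -0.07 and -0.73, and none of these passed.

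Notch3, a receptor that marks parabasal cells, was the 1 gene of the list called lower, with 6.92, 8.46 and 8.55 in the GFP+ gate against 9.66, 9.57 and 10.08 (-1.79 ± 0.39, adjusted p = 0.033). Its GFP+ replicate 1 was the lowest array, and the columnar arrays lay at 9.43 to 9.53. The Notch3 call was lost without any 1 of the lectin-only arrays (-1.84, -1.89 and -1.63) or the columnar arrays (-1.79 each), in the 6 arrays alone (-1.79, and -1.63 when centred), with array weights (-1.63), and with the mean (-1.37) or most variable probe set (-0.96). Without GFP+ replicate 2 or with the trended and robust fit, 2 genes of the list were lower.

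Wnt ligands were called in both directions. Of 49 measured genes of the pathway, 5 were higher and 1 lower (12.2% called, against 3.74% of all genes), with a median of -0.04. Wnt10a, among the 5, is a marker picked with earlier results known and has been given above. Fzd10, a Wnt receptor, was higher by 1.45 ± 0.25 (7.28, 6.92 and 7.32 against 5.77, 5.25 and 6.16, adjusted p = 0.013), a call lost without GFP+ replicate 1 (1.39) or 3 (1.37) and with the mean of its probe sets (0.97). Sfrp1, a secreted Wnt antagonist, was higher by 2.11 ± 0.41 (10.70, 10.15 and 10.75 against 8.82, 8.20 and 8.25, adjusted p = 0.02), lost without GFP+ replicate 1 (2.03) or 3 (2.00), without lectin-only replicate 2 (2.00) or 3 (2.02), and with array weights (2.00). The arrays of both genes were separated between the gates. The ligand Wnt3a differed by 1.54 ± 0.30 (adjusted p = 0.02), lost without replicate 1 or 2 of either gate (1.36 to 1.46) and in the 6 arrays alone (1.54). Wnt6, at 1.01 ± 0.24 (adjusted p = 0.047), lost its call without any 1 array other than lectin-only replicate 2 (0.87 to 1.08) and in most other settings (0.70 to 1.17).

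Wnt5a, a ligand of the pathway branch that does not act through beta-catenin, ran the other way, with 3.10, 5.29 and 3.87 in the GFP+ gate and 6.97, 6.48 and 6.29 in the lectin-only gate (-2.49 ± 0.48, adjusted p = 0.02). It was highest on the columnar arrays, at 7.32 to 7.98, and its call was lost without GFP+ replicate 1 (-1.99) or 3 (-2.38), without lectin-only replicate 1 (-2.29) or 3 (-2.63), and with array weights (-2.40). The target genes Axin2 and Lef1 differed by -0.45 and -0.27, and neither passed. Leaving out GFP+ replicate 1 left 1 Wnt gene higher, leaving out GFP+ replicate 3 left 2, and leaving out GFP+ replicate 2 or any 1 lectin-only array, or using array weights, left 3.

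Growth factor and plasticity genes held single members with large differences. Nrg1, a neuregulin that activates ERBB receptors, read 8.46, 6.85 and 6.85 in the GFP+ gate against 4.59, 4.05 and 4.32 (3.06 ± 0.40, 8.35-fold, adjusted p = 0.0033), while 13 of 15 genes of the EGF and neuregulin list did not pass. GFP+ replicate 1 was the highest array, and all GFP+ arrays lay above all others. The EGF-family ligand Btc was the 1 gene of that list called lower, at -2.0 ± 0.47 (adjusted p = 0.048), a call lost without GFP+ replicate 2 (-2.26), any 1 lectin-only array (-2.12, -2.09 and -1.78) or any 1 columnar array (-2.0 each), with array weights (-1.79) and in the 6 arrays alone (-2.0, and -1.84 when centred). Spry1, a feedback inhibitor of receptor tyrosine kinase signalling, was the 1 gene called among 20 of the FGF list (1.09 ± 0.22, adjusted p = 0.026), lost without any 1 GFP+ array (1.03 to 1.18), lectin-only replicate 1 (0.87) or 3 (1.16), in the 6 arrays alone (1.09) and with arrays centred on ribosomal protein genes (0.91). The share called was 13.3% of the EGF and neuregulin list and 5% of the FGF list. It was 5.71% of the TGF-beta and BMP list, against 3.74% of all genes. Tgfbr3, the betaglycan coreceptor, was 1 of 2 higher genes among 35 of the TGF-beta and BMP list (1.54 ± 0.25, adjusted p = 0.0092). The other, the ligand Bmp7 (1.64 ± 0.38, adjusted p = 0.044), lost its call without any 1 array of either gate (1.60 to 1.72), without columnar replicate 3 (1.64), with array weights (1.67) and with arrays centred on ribosomal protein genes (1.45). The count of 2 was 4 with arrays centred on their medians or quantile normalized, and 1 with arrays centred on ribosomal protein genes, without any 1 GFP+ array, without lectin-only replicate 1 or 2 and without columnar replicate 3. The sorting receptor Sorcs2 (1.59 ± 0.27, adjusted p = 0.011) joined Ngfr as the 2 higher genes among 8 of neurotrophin signalling (25% called, against 3.74% of all genes). The higher count was 1 without GFP+ replicate 1 or 3 or lectin-only replicate 1 and with the mean of all probe sets. In that list 1 gene was lower without GFP+ replicate 3 or with arrays centred on ribosomal protein genes.

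Among 16 factors of epithelial-mesenchymal transition, the marker Snai2 was higher, while Zeb2 and Vim were lower. Zeb2, a zinc finger repressor that myeloid cells also express, read 3.22, 3.01 and 4.17 in the GFP+ gate against 6.97, 5.83 and 6.81 (-3.07 ± 0.37, adjusted p = 0.0024). Vim, an intermediate filament protein of mesenchymal cells and leukocytes, read 8.15, 8.42 and 9.29 against 11.75, 11.19 and 11.67 (-2.91 ± 0.49, adjusted p = 0.011), with the call lost on its most variable probe set (-3.22). The arrays of both were separated. In all, 3 genes of this list were higher and 2 lower (31.25% called, against 3.74% of all genes). The higher count was 1 without replicate 1 or 2 of either gate or with arrays centred on ribosomal protein genes or the mean of all probe sets. The lower count was 1 with the most variable probe set.

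The largest increases in the GFP+ gate also held genes of varied function. Plcxd1, which encodes a phospholipase-like protein, had the largest called increase, with 6.80, 7.46 and 7.38 against 2.77, 3.14 and 4.85 (3.63 ± 0.47, 12.4-fold, adjusted p = 0.0033). Its other probe set lay at -0.11 and was not called. Camk4, a calcium and calmodulin-dependent kinase, read 7.74, 7.15 and 7.67 against 4.0, 3.41 and 5.29 (3.29 ± 0.46, adjusted p = 0.0048), and 1 of its 4 other probe sets was called. For both genes lectin-only replicate 3 was the highest array of its gate and still lay below every GFP+ array. Gfra1, the coreceptor of the glial-derived neurotrophic factor, was higher by 2.70 ± 0.32 (adjusted p = 0.0023), the potassium-chloride cotransporter Slc12a4 by 2.63 ± 0.31, the adhesion molecule Vcam1 by 2.61 ± 0.45 and the matrix protein Vwa1 by 2.56 ± 0.32. Myc was the 1 gene called among 32 immediate early and stress genes (3.1%, near the 3.74% of all genes), with 10.77, 10.57 and 10.05 in the GFP+ gate against 8.50, 9.13 and 8.77 (1.66 ± 0.27, adjusted p = 0.0098).

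Genes shared by leukocytes had the most lower members of any list. Of 25 pan-leukocyte genes, 21 were lower in the GFP+ gate (84.0%, against 2.84% of all genes), 0 were higher and 4 did not pass. The median difference was -3.03 against -0.10 over all genes, and with arrays under background raised to that level the 2 medians were -2.96 and -0.02. Ptprc, the leukocyte common antigen CD45, read 8.85, 8.29 and 9.72 in the lectin-only gate and 5.11, 4.73 and 6.38 in the GFP+ gate (-3.54 ± 0.58, 11.7-fold lower, adjusted p = 0.0098). A second probe set of Ptprc lay at -0.94 and was not called. Coro1a, an actin regulator of leukocytes, read 9.73, 8.91 and 10.07 against 5.28, 5.09 and 6.89 (-3.81 ± 0.48, adjusted p = 0.0029). GFP+ replicate 3 was the highest GFP+ array and lectin-only replicate 3 the highest lectin-only array for both genes, and neither gene overlapped.

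Tyrobp, the signalling adaptor of myeloid and natural killer cell receptors, was lower by 3.82 on the log2 scale (-3.82 ± 0.43, adjusted p = 0.0017). Plek, a protein kinase C substrate of blood cells, read 7.95, 7.95 and 8.81 against 4.08, 4.45 and 4.41 (-3.93 ± 0.27, adjusted p = 1.7e-04). The low-affinity antibody receptor Fcgr2b was under background on all GFP+ arrays and at least 13.9-fold lower there (fitted -4.42 ± 0.30, adjusted p = 1.7e-04). The mean signal of the 25 genes was 5.46 to 6.16 on the GFP+ arrays, 8.07 to 8.65 on the lectin-only arrays and 4.95 to 5.30 on the columnar arrays. Of the defining genes, Hcls1, Was and Fcgr2b were under background on all GFP+ arrays, and the lymphoid transcription factor Ikzf1 was not called (0.04 ± 0.30).

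Macrophage and dendritic cell genes followed. Of 37 measured, 19 (the marker Mmp12 among them) were lower and 1 was higher (54.1% called, against 3.74% of all genes). The other 17 did not pass, and the median was -1.77, or -1.30 after the same raising to background. Itgax, the integrin CD11c of dendritic cells and some macrophages, read 8.28, 8.08 and 8.84 in the lectin-only gate and 3.33, 4.38 and 4.69 in the GFP+ gate (-4.27 ± 0.35, 19.3-fold lower, adjusted p = 3.5e-04). Mrc1, the macrophage mannose receptor, read 7.29, 7.54 and 7.98 against 2.97, 3.12 and 3.93 (-4.27 ± 0.40, adjusted p = 6.1e-04). Adgre1, the macrophage antigen F4/80, read 7.59, 7.54 and 8.29 against 3.37, 3.19 and 4.41 (-4.15 ± 0.36, adjusted p = 4.1e-04). In each case the GFP+ arrays overlapped the columnar ones and lay below every lectin-only array. Cd83, a marker of mature dendritic cells, was lower by 4.57 on the log2 scale (-4.57 ± 0.68, adjusted p = 0.0067), with GFP+ replicate 1 the lowest at 5.11. The complement genes C1qa and C1qc differed by -3.98 ± 0.34 and -3.92 ± 0.44.

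Some genes of the list were not called lower, although 33 of the 37 had a negative difference. The lipopolysaccharide coreceptor Cd14 lay at 12.26 to 12.58 in the GFP+ gate and 12.41 to 12.61 in the lectin-only gate, and overlapped. The lipid transport protein Apoe was the 1 gene called higher (1.56 ± 0.32, adjusted p = 0.029), with 10.34, 9.53 and 9.03 against 7.94, 8.26 and 8.04. Its call was lost without GFP+ replicate 1 (1.20) or 2 (1.61), without any 1 lectin-only array (1.49, 1.65 and 1.53) and in the 6 arrays alone (1.56). Among the largest decreases over all genes were also the complement receptor C5ar1 (-4.21 ± 0.53), the guanine nucleotide exchange factor Dock10 (-4.21 ± 0.37) and the transporter Abca9 (-4.09 ± 0.36). Ms4a7, a membrane protein of macrophages, differed by -4.19 ± 0.28, and the related Ms4a6d, under background on all GFP+ arrays, was at least 12.5-fold lower.

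**Figure D3:**
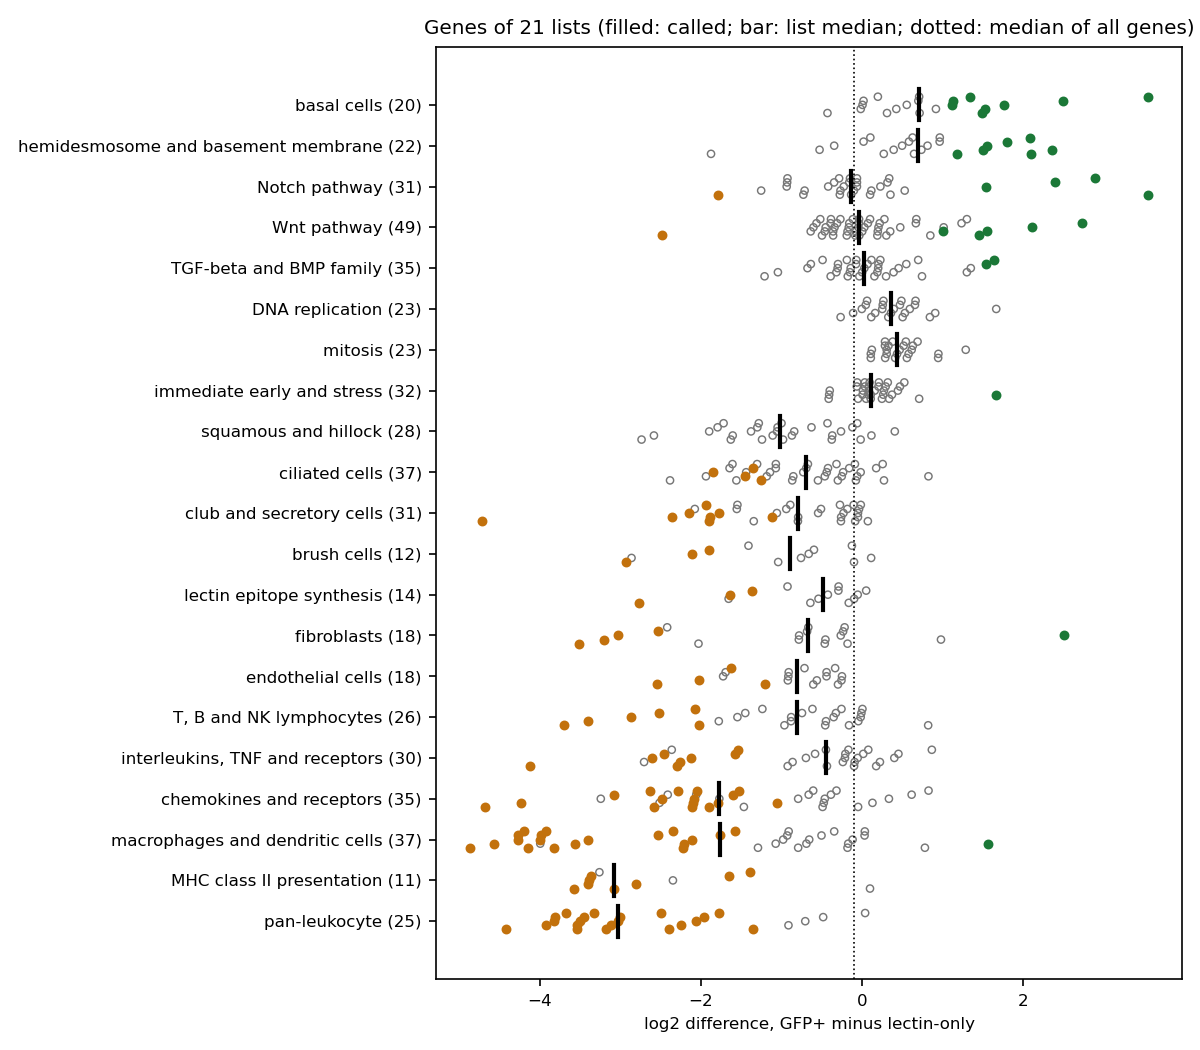
Log2 difference, GFP+ minus lectin-only (horizontal axis), of each measured gene in 21 lists, with the number of genes in brackets; filled points were called, open points were not, bars are list medians and the dotted line is the median of all genes (-0.10). Pan-leukocyte and MHC class II genes have medians of -3.03 and -3.08, basal genes lie to the right at 0.71, and the squamous list has a median of -1.03 with 0 genes called.

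Class II major histocompatibility complex (MHC) genes, which present antigen to T cells, were lower in the GFP+ gate in 8 of 11 measured members (72.7%, against 2.84% of all genes), and 0 were higher. The list median was -3.08, or -2.98 after raising dim arrays to background. H2-Ab1, a class II beta chain, read 11.98, 11.31 and 12.38 in the lectin-only gate and 7.48, 8.38 and 9.65 in the GFP+ gate (-3.39 ± 0.52, adjusted p = 0.0075), and its 2 other probe sets gave -2.97 and -3.56. H2-Eb1, another beta chain, read 11.49, 11.41 and 11.36 against 7.05, 7.84 and 8.64 (-3.58 ± 0.44, 11.9-fold lower, adjusted p = 0.0028). Cd74, the invariant chain, read 12.66, 12.48 and 12.61 against 8.49, 9.30 and 9.87 (-3.36 ± 0.44, adjusted p = 0.0035). In all 3 genes GFP+ replicate 1 was the lowest array and replicate 3 the highest of its gate, and none overlapped.

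Ciita, the coactivator that controls class II transcription, was lower by 1.39 on the log2 scale (-1.39 ± 0.26, 3.59, 3.24 and 3.85 against 4.49, 5.16 and 5.19, adjusted p = 0.017). Its call was lost without GFP+ replicate 1 (-1.40) or 2 (-1.23), without lectin-only replicate 2 (-1.28) or 3 (-1.27), and with the mean of its probe sets (-0.78). The count of 8 fell to 5 without GFP+ replicate 1 or without lectin-only replicate 3. The pan-leukocyte genes, called lower in 21 of 25, differed on the same arrays, and their part in the class II difference was not tested. Ctss, the cathepsin that processes the invariant chain, differed by -3.40 ± 0.59 (adjusted p = 0.013), lost without lectin-only replicate 1 (-3.33) or 3 (-3.19), and was the 1 gene called among 20 lysosome and cathepsin genes (5%, near the 3.74% of all genes).

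Class II promoters share an inverted CCAAT element, the Y box, close to the transcription start, and 3 genes of the list that were lower in the GFP+ gate are shown to display it. The 100 bases before each start are from RefSeq in build GRCm38.p6, written 5′ to 3′ on the gene's strand, with the searched motif GATTGG in capitals. H2-Aa lies on the minus strand at chr17:34287824-34287923, H2-Eb1 on the plus strand at chr17:34305767-34305866 and H2-Oa on the plus strand at chr17:34092279-34092378.
H2-Aa: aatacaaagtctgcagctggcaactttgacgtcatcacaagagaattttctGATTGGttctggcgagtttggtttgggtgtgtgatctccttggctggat
H2-Eb1: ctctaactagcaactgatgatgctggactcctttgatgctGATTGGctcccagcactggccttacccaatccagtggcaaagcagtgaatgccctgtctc
H2-Oa: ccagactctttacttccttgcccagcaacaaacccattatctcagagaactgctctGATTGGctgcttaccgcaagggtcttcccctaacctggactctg

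The motif began at -49 from the start in H2-Aa, -60 in H2-Eb1 and -44 in H2-Oa, and H2-Eb1 held it once more on the opposite strand, at -35. Of the 9 genes of the list in the promoter table, 6 held GATTGG on either strand within 100 bases before the start in at least 1 window. The share was 8.62% of all 32851 windows, a count by window and not by gene. Within 250 bases the motif was found in 7 of the 9 genes and in 7 of their 10 windows, against 14.6% of all windows. Not every gene called lower held it: Ctss had no match, and H2-DMa had 1 only at -199 in 1 window and none in its other window. Of the genes with a match, H2-DMb1 was not measured. H2-DMb2 and H2-Ob, which also had a match, differed by -3.26 ± 0.91 (adjusted p = 0.09) and -2.35 ± 0.57 (adjusted p = 0.055) and were not called with the arrays as deposited. H2-Ob was called with arrays centred on their medians (-2.19, adjusted p = 0.036) or on ribosomal protein genes (-2.54), with the background filter (-2.35), with the trended and robust fit (-2.35) and without lectin-only replicate 2 (-2.99). It was also called with the mean of all probe sets of each gene, at an unchanged -2.35 because H2-Ob has only 1 probe set. H2-DMb2 was called without GFP+ replicate 3 (-4.09) or lectin-only replicate 2 (-4.24). The motif is given as a description of these windows. H2-Aa was lower by 3.08 on the log2 scale (-3.08 ± 0.66, adjusted p = 0.033), with its call lost without GFP+ replicate 1 (-2.68) or 2 (-2.86), without any 1 lectin-only array (-3.04, -3.21 and -2.99) and with array weights (-3.10). H2-Oa was lower by 1.65 (-1.65 ± 0.31, adjusted p = 0.018), lost without GFP+ replicate 1 (-1.56) or 3 (-1.71).

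Some inflammatory mediators were lower in the GFP+ gate. Of 35 chemokines and their receptors, 16 were lower (45.7%, against 2.84% of all genes), 0 were higher and 19 did not pass (median -1.77). Of 30 interleukin, tumour necrosis factor and receptor genes, 8 were lower (26.7%), 0 were higher and 22 did not pass (median -0.44). Ccl4, which attracts monocytes and T cells, read 9.20, 9.64 and 9.49 in the lectin-only gate and 4.39, 5.48 and 5.76 in the GFP+ gate (-4.23 ± 0.39, 18.8-fold lower, adjusted p = 5.5e-04). Ccl3, a related chemokine, was lower by 4.68 on the log2 scale (-4.68 ± 0.81, adjusted p = 0.013), with the call lost without lectin-only replicate 1 (-4.55) or 3 (-4.68). Ccl2, a monocyte attractant, was under background on all GFP+ arrays and at least 7.17-fold lower there (lectin-only 6.41, 5.89 and 6.87).

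Il1b, the secreted pyrogenic interleukin 1, read 10.80, 10.69 and 10.95 in the lectin-only gate against 5.74, 6.73 and 7.60 in the GFP+ gate (-4.13 ± 0.38, 17.5-fold lower, adjusted p = 5.6e-04). Tnf, the tumour necrosis factor, read 7.23, 7.52 and 7.93 against 4.38, 5.05 and 5.87 (-2.46 ± 0.37, adjusted p = 0.0067). Il10, an anti-inflammatory cytokine, was at least 2.35-fold lower, with GFP+ and columnar arrays under background and lectin-only arrays at 4.77, 4.66 and 4.93. Each of these 3 was higher on every lectin-only array than on any GFP+ array. The interleukin count fell to 5 without lectin-only replicate 3. Of 24 interferon response genes, 1 was lower (4.17%, near the 2.84% of all genes), the transcription factor Irf8 (-2.23 ± 0.33), and 0 were higher, while 2 were lower without lectin-only replicate 2.

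Some lymphocyte genes were lower in the GFP+ gate. Of 26 genes of T, B and natural killer cells, 6 were lower (23.1%, against 2.84% of all genes) and 0 higher (median -0.81). Gzma, a granule protease of cytotoxic lymphocytes, read 7.20, 7.03 and 7.83 in the lectin-only gate and 2.70, 4.46 and 4.67 in the GFP+ gate (-3.41 ± 0.53, adjusted p = 0.0082). Il7r, the interleukin 7 receptor, read 7.76, 6.89 and 7.81 against 3.19, 2.76 and 5.42 (-3.70 ± 0.59, adjusted p = 0.0091), and Cd3g, a chain of the T cell receptor complex, differed by -2.87 ± 0.38. None of the 3 overlapped. Of 19 granulocyte and mast cell genes, 1 was lower (5.26%, near the 2.84% of all genes), the calprotectin subunit S100a8 (-2.36 ± 0.37, adjusted p = 0.008). The granulocyte list had 1 higher gene with centred arrays, 2 lower genes without GFP+ replicate 3, lectin-only replicate 1 or columnar replicate 3, and 3 without lectin-only replicate 2 or with the trended and robust fit, and 2 in the 6 arrays alone and with the mean of all probe sets.

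**Figure D4:**
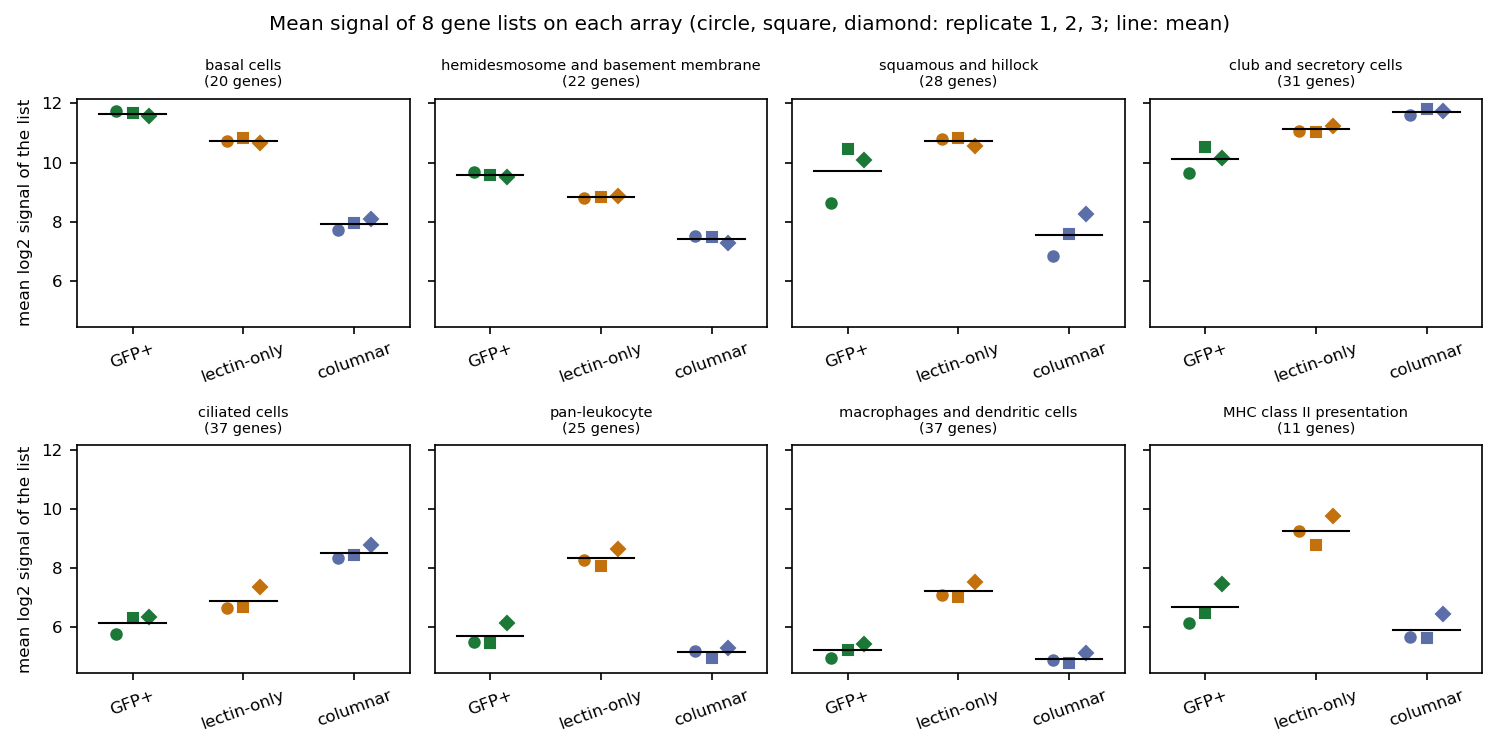
Mean log2 signal (vertical axis) of the measured genes of 8 lists on each array of the GFP+, lectin-only and columnar gates; symbols are replicates 1 to 3 and lines are gate means. Pan-leukocyte genes average 5.46 to 6.16 on GFP+ arrays and 8.07 to 8.65 on lectin-only arrays, while squamous genes average 8.64 on GFP+ replicate 1 and 10.46 and 10.08 on replicates 2 and 3.

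Proteases and matrix genes differed in both directions. Of 24 metalloproteinases and inhibitors, 3 were lower (Mmp13, Adam19 and the marker Mmp12) and 1 was higher, so 16.7% were called, against 3.74% of all genes. Mmp13, a collagenase, was at least 6.70-fold lower in the GFP+ gate, with lectin-only signals of 6.85, 4.95 and 7.09 and all GFP+ and columnar arrays under background. Adamts1, a secreted protease that cleaves proteoglycans, read 9.96, 10.26 and 9.78 in the GFP+ gate against 7.74, 8.29 and 8.54 (1.81 ± 0.23, adjusted p = 0.0031), and 2 genes of the list were higher without columnar replicate 1. Of 18 fibroblast genes, 4 were lower and 1 higher (27.8% called, against 3.74% of all genes, median -0.68). Col3a1, a fibrillar collagen, read 7.25, 7.44 and 8.06 in the lectin-only gate against 3.31, 4.95 and 3.94 (-3.52 ± 0.44, adjusted p = 0.0028), and Col1a1 and Col1a2 differed by -3.20 ± 0.49 and -3.03 ± 0.51. On the columnar arrays Col3a1 and Col1a1 lay at 7.26 to 8.42 and 6.90 to 7.61 and overlapped the lectin-only gate. Dpt, a matrix protein of the dermis, was under background on all GFP+ arrays and at least 2.63-fold lower (fitted -2.54 ± 0.60, adjusted p = 0.0498). The Dpt call was lost without any 1 of the 6 arrays (-2.30 to -2.81), without columnar replicate 3 (-2.54), with arrays centred on their medians (-2.38) or quantile normalized (-2.34) and with array weights (-2.73). It was also lost with the most variable probe set of each gene, at an unchanged -2.54 because Dpt has only 1 probe set.

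Dcn, a small proteoglycan that binds collagen, was the higher member of the fibroblast list, with 11.59, 11.19 and 10.95 in the GFP+ gate and 8.53, 8.71 and 8.97 in the lectin-only gate (2.51 ± 0.21, 5.68-fold, adjusted p = 3.6e-04). Its other probe set lay at 0.31 and was not called. Of 18 endothelial genes, 4 were lower (22.2%, against 2.84% of all genes) and 0 higher (median -0.81, mean signal 3.54 to 3.88 on GFP+ arrays and 4.51 to 4.92 on lectin-only arrays), among them the clotting protein Vwf at -2.03 ± 0.29. The defining cadherin Cdh5 was not called (-0.72, and -0.06 on its other probe set). It was under background on all GFP+ arrays and on lectin-only replicates 1 and 2 (3.25 and 3.27), and read 3.80 on lectin-only replicate 3. Plvap, Cldn5 and Cd34, at -2.55 ± 0.54, -1.21 ± 0.21 and -1.63 ± 0.37, were less stable. Plvap lost its call without GFP+ replicate 2 (-2.32) or 3 (-2.46) or lectin-only replicate 1 (-2.20) or 3 (-2.32), and with array weights (-2.45). Cldn5 lost it without GFP+ replicate 3 (-1.13) or lectin-only replicate 1 (-1.15), and Cd34 without any 1 array other than lectin-only replicate 3 (-1.35 to -1.78) and in the 6 arrays alone (-1.63). Cldn5 and Cd34 were also not called with arrays centred on their medians (-1.05 and -1.47) or quantile normalized (-1.0 and -1.43). The endothelial count was 2 without GFP+ replicate 2 or with arrays centred on their medians or quantile normalized, 1 without GFP+ replicate 3 or lectin-only replicate 1, and 7 with arrays centred on ribosomal protein genes. Of 12 smooth muscle genes, 5 Schwann cell genes, 10 cartilage genes and 4 erythroid genes, 0 were called by limma, with 4, 0, 2 and 0 at an unadjusted p under 0.05. Without lectin-only replicate 3, 1 smooth muscle gene was lower.

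Genes of differentiated airway cells were lower in the GFP+ gate where they were called. Of 31 club and secretory genes, 8 were lower (25.8%, against 2.84% of all genes) and 0 higher (median -0.80). Retnla, a resistin-like secreted protein of secretory cells and alternatively activated macrophages, read 9.56, 9.44 and 9.95 in the lectin-only gate and 3.52, 6.30 and 4.97 in the GFP+ gate (-4.72 ± 0.56, 26.4-fold lower, adjusted p = 0.0022). Its columnar signals of 10.24, 10.32 and 10.69 were above those of the lectin-only gate. The trefoil factor Tff2 read 8.55, 8.40 and 8.84 against 6.19, 7.19 and 6.61 (-1.93 ± 0.28, adjusted p = 0.006), and Tff1 differed by -2.35 ± 0.36. On the columnar arrays Tff2 was highest, at 10.67 to 11.32. Tff1 lay there at 4.64 to 5.52, below the lectin-only gate and overlapping the GFP+ gate. Scgb1a1, the abundant secretoglobin of club cells, lay at 13.49 to 13.73 and 13.65 to 13.78 and overlapped (-0.05 ± 0.16). The columnar arrays, at 13.67 to 13.88, overlapped both gates, so this probe set did not separate columnar from basal gates.

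GFP+ replicate 1 was the lowest of the 6 arrays for the mean of the secretory list, at 9.65 against 10.51 and 10.15 on GFP+ replicates 2 and 3 and 11.03 to 11.25 on the lectin-only arrays. The secretory count fell to 4 without it, and to 5 without GFP+ replicate 3 or any 1 lectin-only array, in the 6 arrays alone (4 when centred) and with array weights. Of 37 ciliated cell genes, 4 were lower (10.8%, against 2.84% of all genes) and 0 higher (median -0.69). Foxj1, the transcription factor of motile cilia, read 5.11, 5.46 and 5.75 in the lectin-only gate against 3.72, 4.52 and 4.03 (-1.35 ± 0.24, adjusted p = 0.014), a call lost without GFP+ replicate 1 (-1.17) or 3 (-1.32). The columnar arrays lay at 7.18 to 7.36, above both gates. Lrrc23, Cfap126 and Rsph1 differed by -1.85 ± 0.36, -1.45 ± 0.33 and -1.25 ± 0.25, and all 3 lost their calls in the 6 arrays alone and without lectin-only replicate 3 (-1.59, -1.15 and -1.24). Lrrc23 also lost it without lectin-only replicate 1 (-1.95), Rsph1 without GFP+ replicate 1 (-1.08) or 3 (-1.19) or lectin-only replicate 2 (-1.11), and Cfap126 without any 1 GFP+ array (-1.20, -1.56 and -1.59), lectin-only replicate 1 (-1.45) or any 1 columnar array (-1.45 each). With array weights Cfap126 (-1.23) and Rsph1 (-1.18) were not called, and neither was Rsph1 in the 6 arrays alone when centred (-1.09). Cfap126 also lost its call with the most variable probe set of each gene, at an unchanged -1.45 because it has only 1 probe set. The ciliated count was 1 without GFP+ replicate 1 or lectin-only replicate 3 and in the 6 arrays alone, and 2 with array weights.

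Among rarer epithelial types, 3 of 12 brush (tuft) cell genes were lower in the GFP+ gate, and 0 were higher. The share called lower was 25% of brush, 8.33% of submucosal gland, 12.5% of ionocyte and 8.33% of detoxification genes, against 2.84% of all genes. Alox5ap, the activating protein of leukotriene synthesis in tuft cells and leukocytes, read 9.06, 8.22 and 9.81 in the lectin-only gate and 5.66, 5.94 and 6.69 in the GFP+ gate (-2.93 ± 0.42, adjusted p = 0.0058). Sh2d6 differed by -1.90 ± 0.27 (adjusted p = 0.0053), and its arrays were separated as well. Trpm5, the cation channel of tuft cells, differed by -2.11 ± 0.47 (adjusted p = 0.038), lost without any 1 GFP+ array (-2.17, -1.91 and -2.25), lectin-only replicate 1 (-2.34) or 3 (-1.64) or columnar replicate 1 (-2.11), and with array weights (-1.87). The gland gene Dmbt1, a mucosal defence glycoprotein, differed by -2.07 ± 0.32 and was the 1 gene called among 12 of submucosal glands, a count of 2 without GFP+ replicate 3. Among 8 ionocyte genes 1 was lower, Coch, which was under background on all GFP+ arrays and at least 1.71-fold lower (fitted -1.26 ± 0.25, adjusted p = 0.023), lost without any 1 GFP+ array (-1.20 to -1.31), lectin-only replicate 2 (-1.19) or 3 (-1.05) and in the 6 arrays alone (-1.26, and -1.10 when centred). Of 10 neuroendocrine genes 0 were called by limma, and 0 had an unadjusted p under 0.05. Their SE includes the columnar spread: that of Scg2 was 0.74 with all 9 arrays and 0.25 in the 6 arrays alone. The carboxylesterase Ces1f, an enzyme of foreign compound metabolism, was the larger of 2 decreases among 24 detoxification genes (-2.27 ± 0.24, adjusted p = 0.0013), and Fmo1, at -1.54 ± 0.27, was the other, lost without GFP+ replicate 1 (-1.41) or lectin-only replicate 1 (-1.51).

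Squamous and hillock genes showed a wide spread inside the GFP+ gate. Of 28 measured genes, 0 were called by limma while 26 had a negative difference, 8 had an unadjusted p under 0.05, and the median was -1.03. The mean signal of the list was 8.64 on GFP+ replicate 1 against 10.46 and 10.08 on replicates 2 and 3, and 10.56 to 10.81 on the lectin-only arrays. Sprr3, a precursor of the cornified envelope, read 6.57, 9.80 and 9.13 in the GFP+ gate and 11.39, 11.52 and 10.81 in the lectin-only gate (-2.74 ± 0.92, adjusted p = 0.16). Krt13, a keratin of hillock cells, read 11.05, 13.16 and 12.67 against 13.32, 13.51 and 13.23 (-1.06 ± 0.72, adjusted p = 0.58). GFP+ replicate 1 was the lowest of the 6 arrays for both genes, and the arrays of neither gene overlapped. Without GFP+ replicate 2, 2 genes of the list were lower.

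No gene of the proliferation lists was called with all arrays as deposited. All 23 mitosis genes and 20 of 23 DNA replication genes had a positive difference, with medians of 0.43 and 0.36, but limma called 0 in either list, and 3 and 1 had an unadjusted p under 0.05. The replication licensing factor Cdt1 was called higher without lectin-only replicate 1 (2.14, adjusted p = 0.031) and with the trended and robust fit (1.66, adjusted p = 0.038). Mki67, the proliferation antigen, read 8.75, 10.47 and 9.49 in the GFP+ gate and 8.86, 9.77 and 9.23 in the lectin-only gate (0.28 ± 0.52), and the gates overlapped. In the lists of glycolysis (12 genes), oxidative phosphorylation (27) and cytosolic ribosomal proteins (19), limma called 0 genes, with 0, 1 and 1 at an unadjusted p under 0.05, and the medians were 0.01, -0.04 and 0.15.

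Enzymes that could build the sugar epitopes used in the sort were also examined. Of 14 glycosyltransferase genes, 3 were lower in the GFP+ gate (21.4%, against 2.84% of all genes) and 0 higher (median -0.48): B4galt6 (-2.77 ± 0.61), Fut2 (-1.64 ± 0.31) and St3gal4 (-1.37 ± 0.28). None of these 3 calls held without GFP+ replicate 1 (-2.79, -1.50 and -1.15), GFP+ replicate 3 (-2.83, -1.49 and -1.47), lectin-only replicate 1 (-2.67, -1.72 and -1.47) or lectin-only replicate 3 (-2.17, -1.39 and -1.25). B4galt6 was also lost without GFP+ replicate 2 (-2.69) and St3gal4 without lectin-only replicate 2 (-1.40), while array weights ended the calls of B4galt6 (-2.39) and Fut2 (-1.39), and the mean of its probe sets that of Fut2 (-0.99). With arrays centred on ribosomal protein genes 5 were lower.

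The genes whose pattern was most like those of Dlk2 and Mmp12 were sought over the 6 arrays among 14287 genes above background, as a description that shares the contrast between the gates. For Dlk2 they were Arhgap22 and Rflna (Pearson r of 0.996 each), Lcat (0.995), Jag2 (0.994) and Tmcc2 (0.993). Rflna read 7.27, 6.17 and 6.98 in the GFP+ gate and 4.19, 4.29 and 4.43 in the lectin-only gate, and like Dlk2 it was highest on GFP+ replicate 1 and lowest of its gate on replicate 2. For Mmp12 they were Slamf8 (0.998), Aacs (0.997), Fxyd5 and Aif1 (0.996 each) and Rgs1 (0.996). Aif1, a calcium-binding protein of macrophages, read 7.98, 7.73 and 7.53 in the lectin-only gate against 3.41, 3.85 and 4.0 (-3.99 ± 0.21, adjusted p = 8.8e-05).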

How the data were processed

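Affymetrix M430-2 arrays measured RNA of 3 gates, 3 arrays each. The authors deposited log2 probe set signals made with RMA, per the submitters' processing notes; its software is not given in the sources used here. Of 45101 probe sets, 34945 had 1 gene symbol in the platform annotation; 932 with several, 9160 with none and 64 controls were left out. Group means of all 9 arrays were fitted with limma 3.58.1 in R 4.3.3 (6 residual degrees of freedom, prior 3.46), with Benjamini-Hochberg adjustment over 18193 genes, and the script was tested on simulated data. Background was the 95th percentile (3.55) of 77 olfactory and vomeronasal probe sets; a gate under it on all arrays gives "at least N-fold", the bright mean against the higher of background and own signal per array. The number of arrays limits precision.

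The comparison, its 4 markers and the gene lists were chosen with earlier results of these data known. Shares of a list set beside those of all genes therefore describe the list and test no enrichment. Named genes were Dlk2, Snai2, Wnt10a, Mmp12 and 11 cell type genes, of which Ggta1 was not analysed here, the 15 largest called changes each way, up to 4 called members per list (2 where none was called) and the 5 most alike. Further list members (Bnc1, Itgb4, Sparc, Dcn, Itga6, Fzd10, Lfng, Apoe, Ciita, H2-Aa, H2-Oa and others) were named after their values were seen. Of 100 named called genes, 43 had several probe sets, 0 with another called the opposite way, and 8 with all called. Alternatives were other scalings, probe set choices, a filter keeping genes above background on at least 3 arrays, variance models (eBayes with trend and robust, or array weights), the 6 arrays alone and leaving out each array.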

Additional observations from a re-analysis of the deposited data

How the results depend on the processing

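Among the counts of genes and the 126 named genes, 0 results reversed. Of 163 higher and 517 lower genes as deposited, the higher count rose to 256 with arrays centred on their medians and 261 with the 6 arrays alone so centred. Leaving out each array gave 85 to 163 higher and 288 to 517 lower genes, the lowest without GFP+ replicate 1; the higher count was 96 without lectin-only replicate 1 and the lower 310 without lectin-only replicate 3. With arrays centred and lectin-only replicate 3 left out, chosen after seeing the data, 168 were higher and 301 lower. The other planned settings without a replicate block kept both counts within 1.5 times. Of 100 named called genes, 96 or 97 kept their call under other scalings and 72 without GFP+ replicate 1, 73 without lectin-only replicate 1 and 77 without lectin-only replicate 3; 86 did in the 6 arrays alone and with array weights. The array weight of lectin-only replicate 3 was 0.28. Signal near background limits what could be measured in the GFP+ gate, where 81 lower genes have only a bound. The cause of these shifts was not tested.

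Same-numbered arrays of the gates compared did not all deviate together (correlations of -0.07, 0.33 and 0.33), so the numbers were not taken to pair samples. With the replicate block 203 genes were higher and 703 lower; with the block and centred arrays 290 and 584; with the block in the 6 arrays alone, chosen after seeing the data, 245 and 792. The block added calls that the arrays as deposited did not give, among them the mitosis gene Anln (1.28, adjusted p = 0.035 by limma) and the class II genes H2-DMb2 (-3.26, adjusted p = 0.021) and H2-Ob (-2.35, adjusted p = 0.013), and 9 in place of 4 ciliated genes were lower and 4 in place of 2 TGF-beta and BMP genes higher.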

Other observations

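Some gene groups were put together after the values had been seen, so their counts are descriptions and carry no test of the group. Over all genes, 0.896% were called higher and 2.84% lower. Of 16 measured genes of the Hedgehog pathway, 4 were higher in the GFP+ gate and 0 lower, with a median difference of 0.35. The transcription factor Gli3, which holds the pathway in check without ligand, read 10.71, 10.21 and 10.72 in the GFP+ gate against 8.82, 8.59 and 9.50 (1.57 ± 0.34, adjusted p = 0.035), and Gli2, its main activator, read 4.77, 5.57 and 6.27 against 3.46, 2.66 and 4.22 (2.09 ± 0.44, adjusted p = 0.029). The receptor and target gene Ptch1 differed by 0.05 ± 0.18. The related factor Gli1 ran the other way, at -0.59, and was not called. Of the 16 genes, 11 had a positive difference. The arrays of Gli2 and Gli3 were separated, but the count of 4 fell to 1 without GFP+ replicate 1, GFP+ replicate 2 or lectin-only replicate 1 and with the mean of all probe sets, to 0 without GFP+ replicate 3 and to 2 without lectin-only replicate 2. The calls of Gli2 and Gli3 were lost without GFP+ replicate 2 (2.07 and 1.74) or 3 (1.73 and 1.49), without lectin-only replicate 1 (2.10 and 1.50) or 2 (1.70 and 1.38), that of Gli3 also without GFP+ replicate 1 (1.49) and with arrays centred on ribosomal protein genes (1.39), and that of Gli2 also in the 6 arrays alone (2.09) and with the mean of its probe sets (1.53).

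Genes of tissue-resident macrophages were among the lower genes in 11 of 15 members (median -2.24), a count of 7 without GFP+ replicate 2, GFP+ replicate 3 or lectin-only replicate 3. Cd163, a scavenger receptor for haemoglobin, was under background on all GFP+ arrays and at least 7.69-fold lower there (lectin-only 6.52, 6.09 and 6.87). Stab1, another scavenger receptor, read 7.25, 8.04 and 7.71 against 3.64, 4.39 and 4.21 (-3.58 ± 0.26, adjusted p = 2.1e-04). Of 10 antibody and complement receptor genes, 7 were lower. Genes of late cornification, the last step of squamous differentiation, were lower in 10 of 23 members (median -1.88), while none of the squamous and hillock list was called. The late cornification count was 3 without lectin-only replicate 1 or 3 6 without lectin-only replicate 2, and 5 in the 6 arrays alone (6 when centred) and with array weights. Serpinb7, a protease inhibitor of the outer epidermis, read 5.14, 5.42 and 6.29 against 2.43, 3.20 and 3.86 (-2.45 ± 0.40, adjusted p = 0.0096).

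Of 42 collagen chains, 5 were higher in the GFP+ gate (Col7a1, Col8a1, Col16a1, Col17a1 and Col25a1) and 4 lower (Col1a1, Col1a2, Col3a1 and Col14a1), with 3 higher without GFP+ replicate 1 or lectin-only replicate 1. Of 9 genes of lymphatic endothelium, 4 were lower (Lyve1, Flt4, Reln and Mmrn1), with 2 lower without GFP+ replicate 1, GFP+ replicate 2 or lectin-only replicate 3 and 1 without lectin-only replicate 1. Lyve1 was also counted among the genes of tissue-resident macrophages. The lymphatic transcription factor Prox1 differed by -1.85 and was not called, and further probe sets of it lay at -0.24 and 7.5e-04.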
